A study of Homo sapiens with 6 samples.

Results

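Glycolysis and the response to low oxygen were examined through 38 listed genes in NCI-N87, a human gastric carcinoma cell line, with and without the keratin gene KRT17. The members were taken by gene name from a list that covers glucose uptake, the glycolytic enzymes, lactate production and export, and targets of the hypoxia-inducible factors (HIFs). All 38 were found among the 58735 gene identifiers, and all 38 were among the 16046 genes that reached 1 FPKM in at least 2 libraries. FPKM is a level per length: fragments scaled by exon length and by a depth term for each library.

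Total RNA was sequenced from 6 libraries. WT comprised 2 libraries of unmodified NCI-N87 cells, and KO1 and KO2 comprised 2 libraries each of NCI-N87 cells labelled as KRT17 knockouts. The labels give NCI-N87 as the line of all groups and name no treatment or oxygen level. The labels do not say whether KO1 and KO2 are guides, pools or single clones, nor whether the replicates were separate cultures. Each p-value is thus measured against library-to-library spread that may be technical only. KO1 and KO2 were each set against the same WT libraries, so their changes from WT are not independent of each other.

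Glycolysis splits glucose into pyruvate in the cytosol and yields ATP without oxygen; lactate dehydrogenase then turns pyruvate into lactate, and carriers move the lactate out. When oxygen is low, the HIF alpha subunits escape hydroxylation by prolyl hydroxylases and degradation through the VHL ligase. They then pair with ARNT and bind DNA at a short core, ACGTG or GCGTG, near genes for glucose transporters, glycolytic enzymes, acid handling, blood vessel growth and mitochondrial turnover. Carcinoma cells often express many of these genes with oxygen present.

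The targeted gene KRT17 was at 739 and 753 FPKM in WT, at 2.29 and 2.40 FPKM in KO1, and at 11.3 and 10.4 FPKM in KO2. Recovered depth ran from 17599759 to 22852340 reads a library. All 10 markers of the gastric carcinoma epithelium, ERBB2, KRT19 and CDX2 among them, were lower in the knockout libraries, and 5 of the 10 were under 1 FPKM in every knockout library. Their summed level was 5307 to 5486 FPKM in WT and 325 to 396 FPKM in the knockouts. Of 9 mesenchymal or fibroblast markers, 5 were tested and all 5 were higher; the sum was 0.886 to 1.21 FPKM in WT and 83.0 to 99.2 FPKM in the knockouts, PDGFRA was at 0 in every library, and 4 of the 9 stayed under 1 FPKM in every knockout library. The 6 leukocyte markers summed to 0.385 to 0.604 FPKM in WT and 0.949 to 1.76 FPKM in the knockouts. The 4 endothelial markers, none tested, summed to 0.106 to 0.127 FPKM and 0.668 to 0.746 FPKM. ERBB2 was at 1355 and 1420 FPKM in WT and between 5.27 and 6.07 FPKM in the knockouts, KRT19 went from 1695 and 1762 FPKM to 0.151 FPKM or less, and LUM, a fibroblast proteoglycan, from 0 to between 28.8 and 31.5 FPKM. KRT8 stayed at 166 to 197 FPKM and KRT18 at 146 to 184 FPKM in the knockouts, below WT means of 1148 and 562 FPKM. The libraries labelled KO1 and KO2 thus had lower levels of all 10 markers of the labelled line, and 5 of them were nearly absent. Whether the cells of these libraries derive from NCI-N87 was not tested. Every knockout value below therefore means a library labelled as a knockout, and a difference between lines cannot be told apart from loss of KRT17. The marker shifts move with every WT against knockout result below, and their part in those results was not tested. In bulk RNA, fewer cells of a type and less RNA per cell cannot be told apart.

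The promoters of 33 members were matched in the RefSeq table for GRCh38.p14 and searched for the HIF core, spelled ACGTG or GCGTG, on both strands of the 250 bases before each start site. Shown are 4 promoters of members that were higher in the knockouts and 2 of members that were lower, so that the letters can be read beside the levels given later. They were chosen with the matches known and not by a rule, so the difference between the sets shown is made by the choice. HK2 and ALDOC, both called lower, each have a promoter with at least 5 matches, and EGLN3, called higher, has none. Capitals mark the matches, each read 5′ to 3′ along the gene's own strand. A match on the opposite strand appears as CACGT. The 4 from genes with higher levels are CA9 at chr9:35673678-35673927 on the plus strand, LDHA at chr11:18394313-18394562 on the plus strand, P4HA1 at chr10:73096867-73097116 on the minus strand, and DDIT4 at chr10:72273674-72273923 on the plus strand.
CA9: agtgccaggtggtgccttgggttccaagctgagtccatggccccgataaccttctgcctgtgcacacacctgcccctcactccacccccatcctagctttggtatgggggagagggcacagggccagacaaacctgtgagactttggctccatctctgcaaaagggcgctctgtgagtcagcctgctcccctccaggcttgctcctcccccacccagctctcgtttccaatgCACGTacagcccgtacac
LDHA: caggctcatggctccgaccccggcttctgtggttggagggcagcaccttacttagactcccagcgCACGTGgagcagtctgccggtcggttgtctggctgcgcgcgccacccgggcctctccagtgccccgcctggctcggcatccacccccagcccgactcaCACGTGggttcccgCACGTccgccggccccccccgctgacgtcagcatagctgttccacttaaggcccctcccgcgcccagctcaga
P4HA1: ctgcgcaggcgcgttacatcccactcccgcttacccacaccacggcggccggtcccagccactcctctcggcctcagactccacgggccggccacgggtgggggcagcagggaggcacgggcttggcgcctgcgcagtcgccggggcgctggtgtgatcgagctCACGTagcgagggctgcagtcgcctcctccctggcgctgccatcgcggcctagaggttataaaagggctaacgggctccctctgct
DDIT4: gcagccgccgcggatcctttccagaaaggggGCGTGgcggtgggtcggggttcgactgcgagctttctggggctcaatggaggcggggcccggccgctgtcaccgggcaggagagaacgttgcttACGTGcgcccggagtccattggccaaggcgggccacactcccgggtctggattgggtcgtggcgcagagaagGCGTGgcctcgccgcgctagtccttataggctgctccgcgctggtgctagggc

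CA9 held 1 match, which began 18 bases before the start site. LDHA held 5 matches from 3 places, because the palindrome CACGTG counts once on each strand. P4HA1 held 1 match 86 bases before its start, and DDIT4 held 3, at 219, 125 and 53 bases. The 2 shown from members with lower levels are SLC2A1 at chr1:42958869-42959118 and PKM at chr15:72231191-72231440, both on the minus strand, and neither window held a match.
SLC2A1: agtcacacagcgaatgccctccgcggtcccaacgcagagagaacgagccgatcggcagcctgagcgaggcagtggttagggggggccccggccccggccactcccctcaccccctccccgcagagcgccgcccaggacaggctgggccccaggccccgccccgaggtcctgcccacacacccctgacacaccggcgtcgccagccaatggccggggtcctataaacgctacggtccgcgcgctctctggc
PKM: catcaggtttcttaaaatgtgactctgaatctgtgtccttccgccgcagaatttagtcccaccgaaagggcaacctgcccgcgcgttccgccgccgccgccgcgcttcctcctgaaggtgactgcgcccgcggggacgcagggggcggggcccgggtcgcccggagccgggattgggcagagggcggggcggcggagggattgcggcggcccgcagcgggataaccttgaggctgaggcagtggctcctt

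Over all 35116 promoters of the same length in that table, 43.2% held ACGTG or GCGTG on either strand. Of the 61 promoters of the members, 37 did, or 60.7%. By promoter, 27 of 39 from members called higher (69.2%) and 9 of 20 from members called lower (45%) held a match. Promoters of the same gene are not independent, and HK1, called lower, has several without a match. Counted as genes with at least 1 matching promoter, these were 20 of 21 called higher and 7 of 10 called lower. By gene, 28 of 33 members had at least 1 promoter with a match, against 47.4% of 27305 genes, but the members have more promoters per gene in the table, which raises that share. The members' promoters had a median of 22 CpG dinucleotides and all promoters a median of 11, and the part of base composition in these shares was not tested. A match in these letters is a description and not a binding site, and a window without one says only that the letters are not there. SLC2A3, SLC16A1, NDRG1, VEGFA and BNIP3L were not matched.

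With the 4 knockout libraries averaged, 25 of the 38 members were higher than in WT and 11 were lower at a limma Benjamini-Hochberg adjusted p under 0.05. The other 2, GPI and PGAM1, did not pass. The same test called 40.5% of all tested genes higher and 40.1% lower, 80.6% in all, so being called carries little information here. The median change of the members was 0.78 on the log2(FPKM + 1) scale, and the median of all tested genes was 0.02. A rise of more than 1 on that scale was called for 15 members and for 14.7% of all genes, and a fall of more than 1 for 3 members and for 14.6% of all genes. CA9, ADM, BNIP3, EGLN3 and ANKRD37 were under 1 FPKM in both WT libraries and entered the test only through knockout libraries. Among the other 33 members, 20 were higher and 11 lower, with a median of 0.54.

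**Figure D1:**
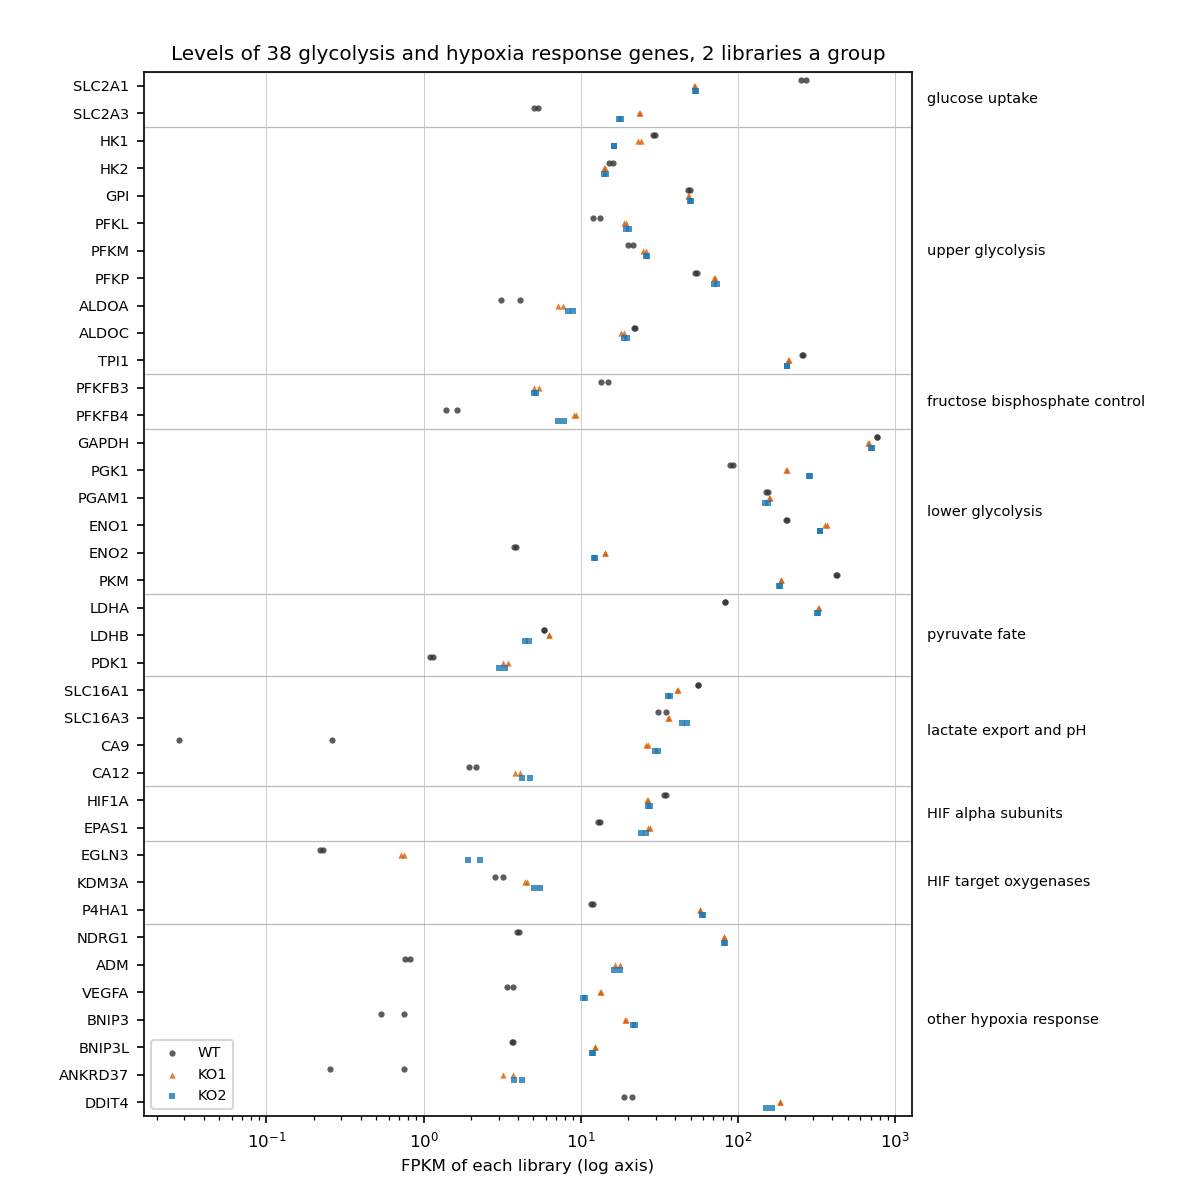
FPKM of the 38 members in each of the 6 libraries on a log axis, grouped by role, with circles for WT, triangles for KO1 and squares for KO2. The replicate libraries of a group lie close together for most genes, and CA9, whose WT libraries were at 0.0277 and 0.261 FPKM, has the widest gap between replicates.

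Among the 14 members of the hypoxia response, 13 were higher and HIF1A was lower, with a median of 1.59. Of these, CA9, ADM, BNIP3, EGLN3 and ANKRD37 could enter the test only by being high in the knockouts. Of the other 9, 8 were higher, with a median of 1.48, where 40.5% of all tested genes were higher. Among the 24 members of glycolysis and its transporters, 12 were higher, 10 were lower and 2 did not pass, with a median of 0.16. The glycolytic route held changes in both directions at successive steps, described next from glucose entry onward.

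Glucose entry changed in opposite directions at the 2 listed carriers. SLC2A1 encodes GLUT1, the widely expressed glucose transporter, and stood at 254 and 272 FPKM in WT, 53.3 and 52.9 in KO1, and 54.1 and 53.8 in KO2. All 4 knockout libraries were close together and far below WT (log2 change -2.27 ± 0.03 SE, adjusted p = 3.81e-07). SLC2A3 encodes GLUT3, a high-affinity glucose transporter, and stood at 5.32 and 5.06 FPKM in WT, 23.7 and 23.6 in KO1, and 18.1 and 17.6 in KO2. WT was lowest, KO1 was highest, and no group overlapped another (log2 change 1.80 ± 0.03, adjusted p = 6.74e-07). As a share of the summed FPKM of the pair, GLUT3 went from 2.05% and 1.83% in WT to 30.7% and 30.9% in KO1 and 25.1% and 24.7% in KO2. GLUT1 remained the more abundant of the pair in every library.

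Hexokinase phosphorylates glucose and so traps it in the cell. HK1, the housekeeping isoform, was at 28.8 and 29.7 FPKM in WT, 24.1 and 23.3 in KO1 and 16.4 in both KO2 libraries. KO2 was the lowest group and KO1 lay between it and WT (log2 change -0.55 ± 0.03, adjusted p = 2.22e-05). HK2, the isoform that HIF is known to induce, was at 15.2 and 16.1 FPKM in WT and at 14.0 to 14.5 FPKM over the knockouts. That small fall (-0.13 ± 0.03, adjusted p = 0.0152) became a rise of 0.00695 with library size scaling and of 0.00905 with voom, neither called, so no direction was fixed for HK2.

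The next enzymes, down to the splitting of the sugar, changed little. GPI, which isomerises glucose 6-phosphate, was at 47.9 to 50.2 FPKM over all 6 libraries and did not pass (0.01 ± 0.02, adjusted p = 0.644). It was called higher with quantile normalization, library size scaling and voom. The 3 phosphofructokinase subunits, which catalyse the committed step, were all higher: PFKP by 0.39 ± 0.03, PFKM by 0.30 ± 0.04 and PFKL by 0.59 ± 0.05 (adjusted p = 9.58e-05, 0.000882 and 0.000133). PFKL had the largest of the 3 changes, from 12.0 and 13.3 FPKM in WT to 18.8 and 19.5 in KO1 and 20.4 and 19.5 in KO2, with no overlap. PFKP, the platelet-type subunit, nevertheless stayed at a like share of the summed level in WT and knockout libraries, between 60.5% and 62.6%.

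Aldolase cleaves fructose 1,6-bisphosphate, and of its listed isoforms ALDOA was called higher and ALDOC lower, each with a limit given here. ALDOA, the muscle-type isoform, was at 4.08 and 3.11 FPKM in WT, 7.76 and 7.21 in KO1, and 8.87 and 8.33 in KO2. Every knockout library was above WT (0.98 ± 0.09, adjusted p = 0.000296). However, 42.3% of the exon bases of ALDOA are shared with the gene AC093512.2 on the same strand. AC093512.2 itself was at 0.409 FPKM in WT and 1.69 FPKM in the knockouts. The level of ALDOA thus depends on how shared reads were assigned. ALDOC, the brain-type isoform, was at 22.1 and 21.8 FPKM in WT and at 18.1 to 19.8 FPKM in the knockouts (-0.20 ± 0.03, adjusted p = 0.00282), a call that was lost with quantile normalization, library size scaling and voom. TPI1, the triose phosphate isomerase, was at 259 and 255 FPKM in WT and at 205 to 211 FPKM in the knockouts (-0.30 ± 0.02, adjusted p = 5.6e-05). That call was lost with quantile normalization, where the change was -0.05.

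Fructose 2,6-bisphosphate, the strong activator of phosphofructokinase, is made and removed by the PFKFB enzymes. The listed pair of these exchanged rank. PFKFB3, the isoform with the highest kinase to phosphatase ratio, was at 13.5 and 14.9 FPKM in WT, 5.41 and 5.08 in KO1, and 5.17 and 5.07 in KO2. It was 2.74-fold lower, with the knockout libraries close together (-1.30 ± 0.05, adjusted p = 1.01e-05). PFKFB4 was at 1.62 and 1.39 FPKM in WT, 9.12 and 9.33 in KO1, and 7.18 and 7.84 in KO2. It was 5.55-fold higher, and every knockout library lay above WT (1.90 ± 0.06, adjusted p = 4.23e-06). PFKFB4 made up 10.7% and 8.52% of the pair's summed FPKM in WT and between 58.1% and 64.7% in the knockouts. PFKFB2, which is not a member, was at 4.64 and 5.08 FPKM in WT and between 14.6 and 15.2 FPKM in the knockouts. It was above PFKFB4 in every library and above both members in the knockouts.

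Lower glycolysis held changes in both directions at neighbouring steps. GAPDH, which oxidises glyceraldehyde 3-phosphate and is a common reference gene, was at 769 and 770 FPKM in WT, 678 and 685 in KO1, and 716 and 708 in KO2, higher in level than any other member. Its small fall (-0.14 ± 0.02, adjusted p = 0.00146) turned into a rise of 0.22 with quantile normalization, and into rises of 0.00643 with library size scaling and 0.00561 with voom, so GAPDH had no fixed direction. PGK1, the next enzyme and the first to yield ATP, was at 92.8 and 89.7 FPKM in WT, 205 and 203 in KO1, and 288 and 285 in KO2. Groups were separate and KO2 was highest, 2.69-fold above WT over all knockout libraries (1.40 ± 0.02, adjusted p = 5.67e-07). PGAM1, the mutase that follows, was at 150 to 161 FPKM in all 6 libraries and did not pass (0.02 ± 0.03, adjusted p = 0.493), although library size scaling, quantile normalization and voom called it higher.

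The enolases, which make phosphoenolpyruvate, were both higher. ENO1 was at 201 and 205 FPKM in WT, 367 and 359 in KO1, and 334 and 331 in KO2, a 1.71-fold rise without overlap (0.77 ± 0.02, adjusted p = 2.97e-06). ENO2, the neuronal isoform, was at 3.76 and 3.89 FPKM in WT, 14.2 in both KO1 libraries and 12.2 in both KO2 libraries (1.55 ± 0.03, adjusted p = 9.13e-07). With ENO3, the muscle isoform that is not a member, included in the sum, ENO2 made up 1.83% and 1.85% of enolase FPKM in WT and 3.26% to 3.55% in the knockouts. ENO1 made up 97.6% in both WT libraries and 89.1% to 89.6% in the knockouts. PKM, the pyruvate kinase that ends the pathway, fell instead. It was at 421 and 428 FPKM in WT, 187 and 188 in KO1, and 185 and 184 in KO2, 2.28-fold lower with the knockout libraries close together (-1.19 ± 0.02, adjusted p = 5.46e-07). Gene-level values do not separate its M1 and M2 splice forms.

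Summed over the 17 listed enzymes from hexokinase to lactate dehydrogenase A and B without the PFKFB pair, the level was 2190 and 2207 FPKM in WT, 2384 and 2381 in KO1, and 2453 and 2422 in KO2. On average the knockout level was 1.10 times the WT mean, 2410 ± 34.4 FPKM (SD, n = 4) against 2199 ± 12.1 FPKM (SD, n = 2). With library size scaling and without GAPDH the ratio was 1.33, the furthest of the settings from 1.10. In each of these settings the total differed less than PGK1, PKM or LDHA alone, and the make-up of the total changed: PKM went down while LDHA, PGK1 and ENO1 went up.

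At the fate of pyruvate, LDHA, which reduces pyruvate to lactate, was at 82.8 and 82.9 FPKM in WT, 331 and 324 in KO1, and 322 and 318 in KO2. All knockout libraries were close together and 3.91-fold above WT (1.95 ± 0.02, adjusted p = 1.91e-07). LDHB, the heart-type subunit, was at 5.87 and 5.82 FPKM in WT, 6.29 and 6.27 in KO1, and 4.70 and 4.42 in KO2. KO1 lay above WT and KO2 below it: KO1 did not pass (0.09 ± 0.04, adjusted p = 0.12), KO2 was lower (-0.30 ± 0.04, adjusted p = 0.00183), and the fall of the average (-0.11 ± 0.04, adjusted p = 0.0497) turned to a rise of 0.02 with library size scaling and voom. LDHA made up 93.4% of the summed FPKM of both subunits in each WT library and 98.1% to 98.6% in the knockouts. However, 33.4% of the exon bases of LDHB are shared with AC010197.2 on the same strand, which had 0 reads in WT and in the knockouts. The level of LDHB and these shares thus depend on how shared reads were assigned. PDK1, the kinase that switches off pyruvate dehydrogenase, was at 1.14 and 1.10 FPKM in WT and between 3.04 and 3.47 FPKM in the knockouts (1.01 ± 0.06, adjusted p = 3.73e-05).

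Lactate and protons leave through the monocarboxylate carriers, and surface carbonic anhydrases buffer the acid outside. SLC16A1, the carrier MCT1, was at 56.1 and 55.8 FPKM in WT, 41.4 and 40.8 in KO1, and 36.1 and 36.8 in KO2 (-0.52 ± 0.02, adjusted p = 9.62e-06). SLC16A3, the export carrier MCT4, was at 31.0 and 34.8 FPKM in WT, 36.2 and 35.9 in KO1, and 47.4 and 44.2 in KO2. MCT4 was called higher in KO2 (0.47 ± 0.06, adjusted p = 0.00131), and KO1 did not pass (0.13 ± 0.06, adjusted p = 0.109). With quantile normalization, library size scaling or voom, or without WT replicate 2, KO1 was also called higher. As a share of both carriers, MCT4 went from 35.6% and 38.4% in WT to 46.7% and 46.9% in KO1 and 56.8% and 54.6% in KO2.

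CA9, the carbonic anhydrase much used as a marker of hypoxia, had the largest change of all members. It was at 0.0277 and 0.261 FPKM in WT, 26.9 and 26.2 in KO1, and 29.6 and 30.8 in KO2. WT was close to 0, with 1 and 8 reads, against 3968 reads in the 4 knockout libraries, and both KO2 libraries lay above both KO1 libraries (knockout average 4.69 ± 0.09, adjusted p = 8.59e-07). Pooling reads over libraries and scaling by depth gave a 209-fold rise, with a 95% exact interval of 110.1 to 458 that covers counting error only. ARHGEF39 overlaps 38.5% of the exon bases of CA9 on the opposite strand, and whether the counting used strand is not stated in any source at hand; ARHGEF39 itself was at 3.54 FPKM in WT and 3.22 FPKM in the knockouts. CA12, another surface carbonic anhydrase, was at 1.94 and 2.15 FPKM in WT and between 3.85 and 4.77 FPKM in the knockouts (0.78 ± 0.07, adjusted p = 0.000181). CA9 therefore went from 1.41% and 10.8% of the pair's FPKM in WT to between 86.1% and 88.0%.

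**Figure D2:**
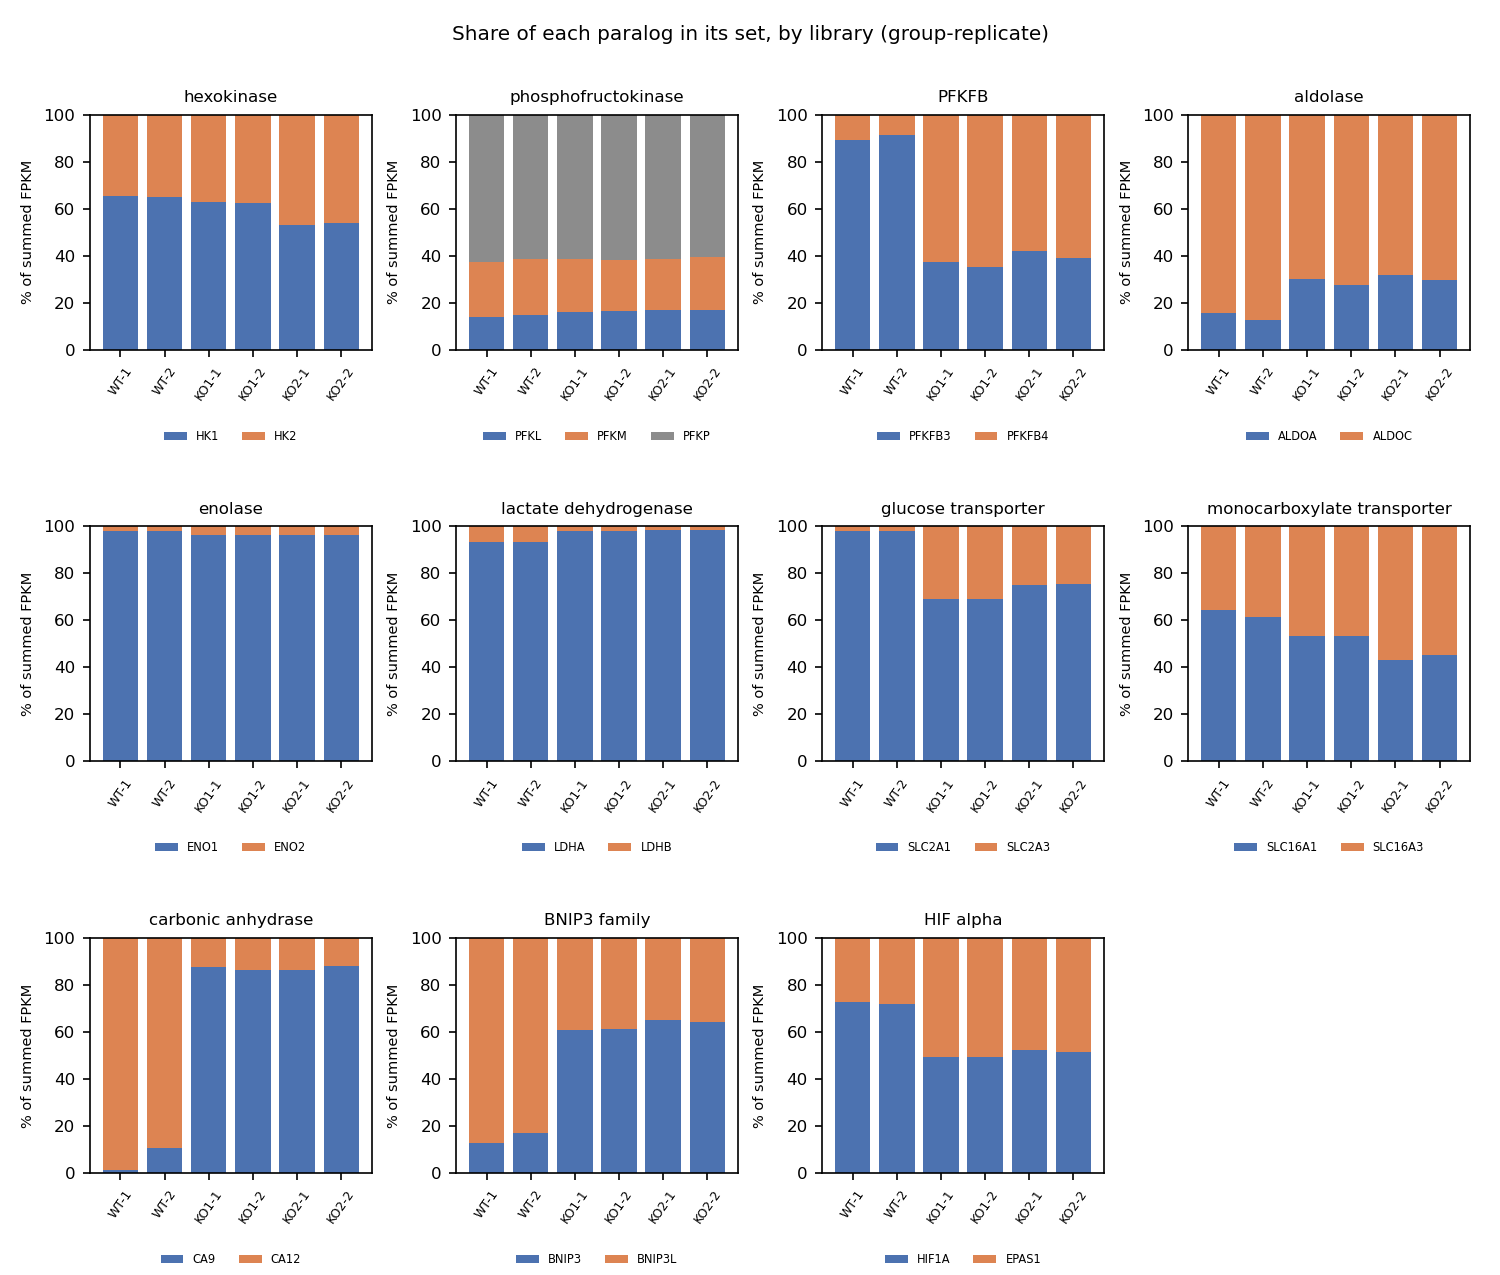
Share of each paralog in the summed FPKM of its set, in percent, for each library, with only the listed members in each sum; each bar is 1 library and sums to 100%. The PFKFB, carbonic anhydrase and BNIP3 sets exchanged rank between WT and the knockouts, while PFKP stayed between 60.5% and 62.6% of the phosphofructokinases.

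The HIF alpha subunits, the oxygen-regulated subunits of the transcription factor, moved apart at the transcript level. HIF1A was at 34.9 and 34.1 FPKM in WT, 26.7 and 26.3 in KO1, and 26.7 and 27.5 in KO2 (-0.35 ± 0.03, adjusted p = 8.83e-05). EPAS1, which encodes HIF-2 alpha, was at 13.0 and 13.3 FPKM in WT, 27.6 and 26.8 in KO1, and 24.4 and 26.1 in KO2 (0.95 ± 0.04, adjusted p = 8.53e-06). The share of EPAS1 in the pair rose from 27.1% and 28.0% in WT to between 47.8% and 50.8%, so the transcripts of both subunits were near equal in the knockouts. HIF alpha is regulated mainly as protein, which was not measured here.

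All 3 HIF-target oxygenases were called higher, as were 40.5% of all tested genes. EGLN3 was under 1 FPKM in both WT libraries, so its direction was set by the level filter. P4HA1, the catalytic subunit of collagen prolyl 4-hydroxylase, was at 12.0 and 11.6 FPKM in WT, 57.8 and 57.5 in KO1, and 60.0 and 59.5 in KO2, a 4.97-fold rise (2.22 ± 0.02, adjusted p = 2.06e-07). KDM3A, a histone H3 lysine demethylase, was at 2.87 and 3.21 FPKM in WT and between 4.44 and 5.54 FPKM in the knockouts (0.54 ± 0.06, adjusted p = 0.000488). EGLN3, the prolyl hydroxylase PHD3 that feeds back on HIF alpha, was at 0.220 and 0.229 FPKM in WT, 0.751 and 0.717 in KO1, and 2.28 and 1.92 in KO2. EGLN3 was called higher in both groups, by 0.50 ± 0.09 in KO1 (adjusted p = 0.00384) and by 1.34 ± 0.09 in KO2 (adjusted p = 7.5e-05). It passed the level filter through KO2 alone.

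The other 7 hypoxia response genes were higher by more than 1 on the log2 scale, as were 14.7% of all tested genes. ADM, BNIP3 and ANKRD37 among them passed the level filter through knockout libraries only, so 4 of the 7 had no direction set by the filter. NDRG1, a stress-responsive gene linked to differentiation, was at 3.93 and 4.07 FPKM in WT, 81.7 and 81.6 in KO1, and 82.8 and 81.2 in KO2. These 4 knockout libraries were nearly equal (4.05 ± 0.02, adjusted p = 6.63e-08). ADM, which encodes the vasodilator peptide adrenomedullin, was at 0.767 and 0.821 FPKM in WT, 16.6 and 17.9 in KO1, and 16.3 and 17.8 in KO2. KO1 and KO2 overlapped each other and lay 21.6-fold above WT (3.34 ± 0.05, adjusted p = 5.39e-07). VEGFA, the endothelial growth factor, was at 3.40 and 3.68 FPKM in WT, 13.4 and 13.3 in KO1, and 10.7 and 10.3 in KO2, with KO1 highest (1.5 ± 0.04, adjusted p = 2.41e-06).

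BNIP3 and BNIP3L mark mitochondria for removal. BNIP3 was at 0.539 and 0.746 FPKM in WT, 19.2 and 19.4 in KO1, and 22.3 and 21.4 in KO2, a 32.0-fold rise (3.71 ± 0.06, adjusted p = 5.68e-07). Its annotation holds 39 pseudogenes, whose reads came to 114% of those of BNIP3 in WT and 2.81% in the knockouts, so its WT level is uncertain. BNIP3L, also called NIX, was at 3.73 and 3.67 FPKM in WT and between 11.8 and 12.4 FPKM in the knockouts (1.48 ± 0.03, adjusted p = 1.02e-06). The share of BNIP3 in the pair went from 12.6% and 16.9% to between 60.9% and 65.0%.

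DDIT4, or REDD1, which restrains mTORC1, was at 18.9 and 21.3 FPKM in WT, 186 and 185 in KO1, and 165 and 151 in KO2. It was 8.56-fold higher, with KO2 slightly below KO1 (3.03 ± 0.06, adjusted p = 1.11e-06). DDIT4-AS1 overlaps 41.2% of the exon bases of DDIT4 on the opposite strand and had 0 reads in WT and in the knockouts. ANKRD37, a small ankyrin repeat gene induced by HIF1, was at 0.754 and 0.253 FPKM in WT, 3.72 and 3.22 in KO1, and 4.25 and 3.78 in KO2. Reads in the WT libraries were 42 and 12, which differ widely, and the pooled rise was 7.11-fold with a 95% exact counting interval of 5.39 to 9.54 (limma 1.67 ± 0.15, adjusted p = 0.000227). UFSP2 overlaps 35.2% of the exon bases of ANKRD37 on the opposite strand and was at 7.44 FPKM in WT and 5.08 FPKM in the knockouts.

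**Figure D3:**
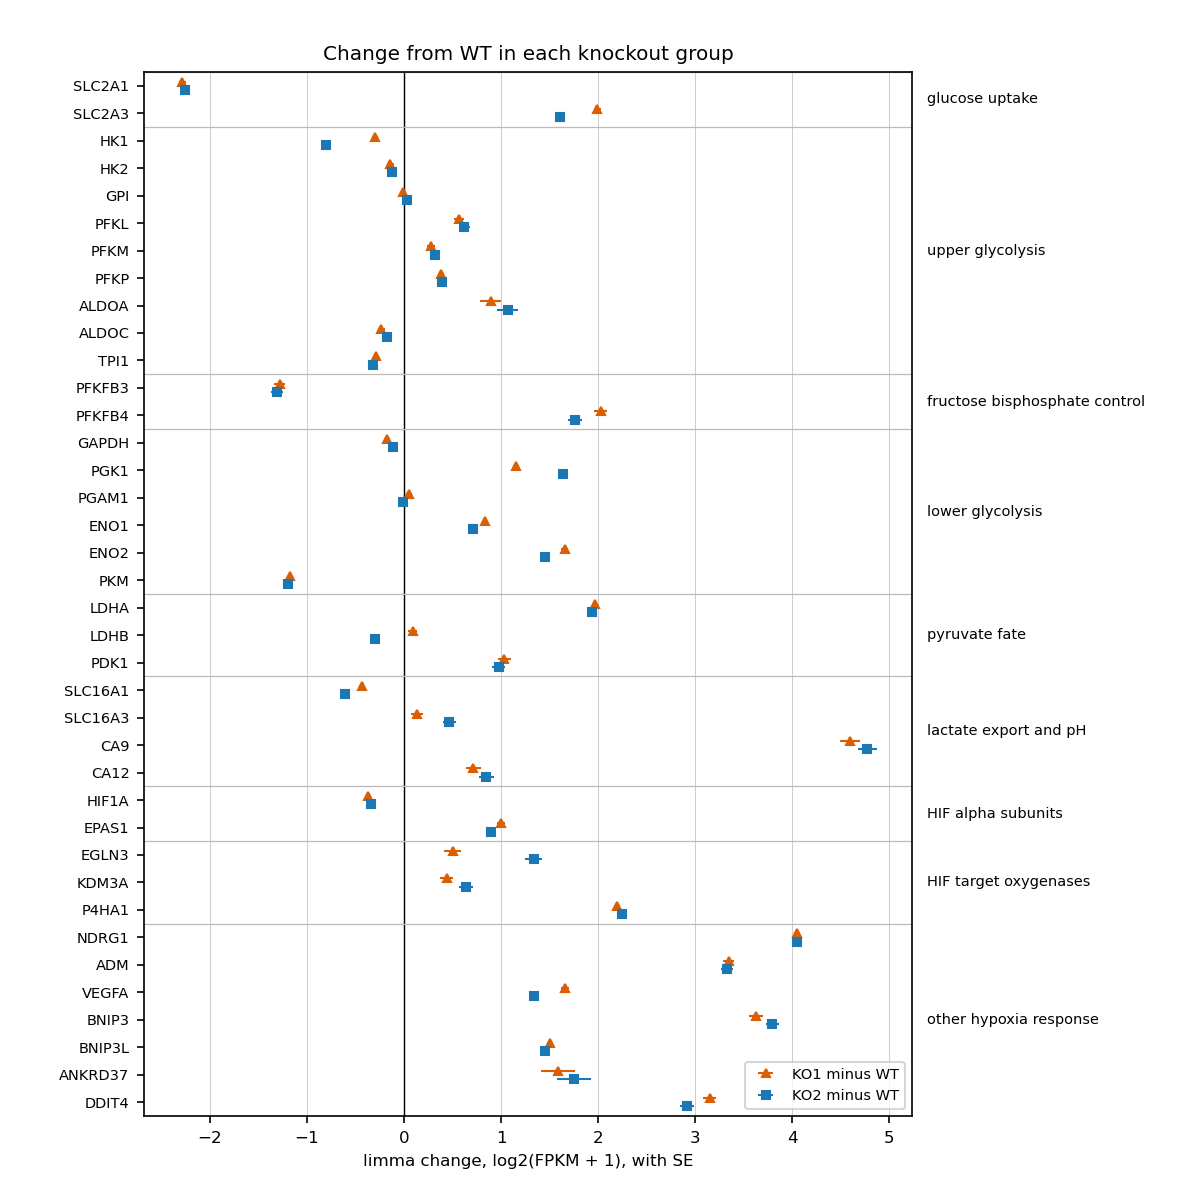
Change of each member from WT in KO1 (triangles) and KO2 (squares), in log2(FPKM + 1) with the SE as bars; both use the same WT libraries. LDHB is 0.09 in KO1 and -0.30 in KO2, PGK1 is 1.15 and 1.64, and EGLN3 is 0.50 and 1.34.

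Taken separately, KO1 had 24 members higher and 10 lower than WT, 34 in all, against 39.3%, 38.6% and 77.8% of all tested genes. KO2 had 25 higher and 11 lower, 36 in all, against 39.1%, 39.8% and 78.9%. Called in the same direction in both groups were 24 members higher and 10 lower, where the shares of all genes were 34.8% and 35.5%. The remaining calls were those of LDHB and SLC16A3, each called in KO2 and not in KO1. The 4 knockout libraries all lay above both WT libraries for 25 members (39.9% of all genes) and all below for 10 (40.0%), or 35 members in either direction (79.9%).

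KO2 and KO1 were then compared directly, a contrast whose log2 differences use no WT library. Its p-values do, since all 3 groups share the estimate of the spread. It called 3 members higher in KO2 (11.2% of all tested genes) and 8 lower (15%), or 11 of 38 against 26.2% of genes. No member differed by more than 1 on the log2 scale, which 0.511% of genes did upward and 0.860% downward. Higher in KO2 were EGLN3 by 0.83 (adjusted p = 0.00355), PGK1 by 0.49 (adjusted p = 0.000713) and SLC16A3 by 0.33 (adjusted p = 0.0193). Lower in KO2 by the largest amounts were HK1 (-0.50, adjusted p = 0.00105), LDHB (-0.39, adjusted p = 0.00426), SLC2A3 (-0.38, adjusted p = 0.00252) and VEGFA (-0.32, adjusted p = 0.00813). The same contrast placed KRT17 itself 1.83 higher in KO2 on the log2 scale. The 10 nearest tested protein-coding genes on either side moved with some of these: those of PGK1 on chromosome X had a median of 0.42 (16 of 20 called higher in KO2) and those of SLC16A3 on chromosome 17 a median of 0.48 (19 of 20). The neighbours of EGLN3 on chromosome 14 had a median of -0.00624, and the part of such regional change was not tested. CA9 (0.18) and BNIP3 (0.17) did not pass in this contrast but were called higher in KO2, and DDIT4 (-0.23) lower, with voom or without either WT library. The counts were sensitive to single libraries: without KO1 replicate 1 the contrast called 5 members, and without KO1 replicate 2 it called 6.

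For the average of the knockouts, each member was set beside the 10 nearest tested protein-coding genes on either side. The medians of those 20 neighbours ran from -0.92 to 1.01, and for 15 of the 38 members they lay beyond 0.5 in either direction. CA9 changed by 4.69 where its neighbours on chromosome 9 had a median of -0.29, and BNIP3 by 3.71 where its neighbours on chromosome 10 had a median of -0.73. SLC2A3 rose amid neighbours with a median of -0.60. In contrast, 19 of the 20 neighbours of PFKFB4 on chromosome 3 were higher (median 1.01), as were 17 of 20 for LDHA (0.80) and 16 of 20 for ADM (0.86), both on chromosome 11. Neighbours of SLC2A1 and PKM had medians of -0.56 and -0.62, in the direction of the member. DNA copy number was not measured, and the part of regional change in these values was not tested. P4HA1 and DDIT4 count among each other's neighbours, as do TPI1 and ENO2.

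**Figure D4:**
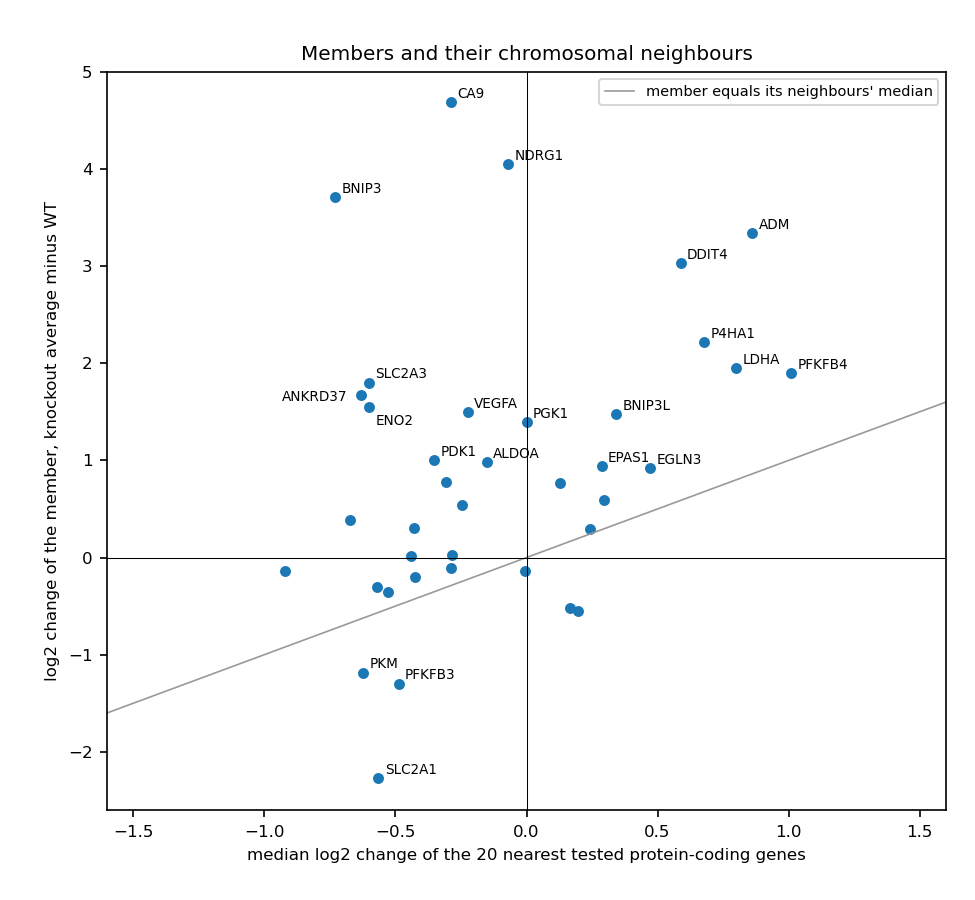
Change of each member, knockout average minus WT, against the median change of its 20 nearest tested protein-coding genes, both in log2(FPKM + 1); the grey line marks equal values. CA9 and BNIP3 lie far above neighbours with negative medians, whereas PFKFB4, ADM and LDHA lie over neighbours that were themselves higher.

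The routes joined to glycolysis were covered by 97 further genes, of which 80 were tested: 47 were higher, 25 lower and 8 not called, with a median of 0.37, against 40.5% higher and 40.1% lower over all tested genes. Of the 80, 10 passed the level filter through knockout libraries only and 4 through WT libraries only; of the other 66, 37 were higher and 21 lower, with a median of 0.30. The entry of pyruvate into mitochondria had 9 of 12 tested genes higher, or 8 of 11 without 1 that entered through knockout libraries only. All 5 subunits of the pyruvate dehydrogenase complex on the list rose, between 2.14-fold and 2.46-fold. Its E1 alpha subunit PDHA1 was at 29.8 and 28.7 FPKM in WT, 72.3 and 70.9 in KO1, and 65.9 and 63.5 in KO2. PDK4, an inhibitory kinase of the complex, rose from 0.512 and 0.482 FPKM to between 5.36 and 7.89 FPKM. It was the 1 gene of this role that entered through knockout libraries only. PDP1, the phosphatase that reactivates the complex, fell from 11.3 and 11.4 FPKM to between 1.80 and 2.63 FPKM.

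Of 10 tested genes for oxygen sensing and HIF alpha degradation, 7 fell, 1 rose and 2 did not pass, against 40.1% of all tested genes called lower. EGLN1, the main HIF prolyl hydroxylase PHD2, was at 39.2 and 39.8 FPKM in WT, 16.5 and 16.2 in KO1, and 10.5 and 11.2 in KO2 (-1.5 ± 0.03, adjusted p = 1.52e-06). HIF1AN, the asparaginyl hydroxylase FIH, was 2.18-fold lower, and ELOC, the elongin C of the VHL ligase, was 2.69-fold lower. VHL itself did not pass on average (0.01 ± 0.03, adjusted p = 0.829), but KO1 was called higher (0.16, adjusted p = 0.00411) and KO2 was called lower (-0.15, adjusted p = 0.00556). With library size scaling, quantile normalization or voom the average of VHL was called higher and the KO2 call was lost. ARNT, the partner of HIF alpha, was higher, from 8.37 and 8.03 FPKM in WT to 13.7 and 13.6 in KO1 and 20.6 and 21.7 in KO2.

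Of 28 other HIF target genes tested, 20 were higher, 5 lower and 3 not called. Of these 28, 7 passed the level filter through knockout libraries only and 1 through WT libraries only; of the other 20, 13 were higher and 4 lower, against 40.5% and 40.1% of all tested genes. LOXL2, a lysyl oxidase-like enzyme of collagen, had 35 reads over both WT libraries and stood between 25.1 and 27.2 FPKM in the knockouts. STC2, a secreted glycoprotein, had 1 read in WT and was at 37.8 and 37.0 FPKM in KO1 and 13.9 and 13.7 in KO2. Several genes of this list are also expressed by mesenchymal cells, whose markers moved in the same libraries, and that part was not tested.

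Beside the main route, the pentose phosphate genes had 4 higher and 2 lower of 7 tested, against 40.5% and 40.1% of all tested genes. TKT, transketolase, rose 3.86-fold, from 33.9 and 35.2 FPKM in WT to 120.5 and 120.7 in KO1 and 147 and 145 in KO2, whereas RPIA, the ribose 5-phosphate isomerase, fell 2.94-fold. PC, pyruvate carboxylase, rose from 3.05 and 3.18 FPKM to between 30.9 and 35.8 FPKM. FBP1, the fructose bisphosphatase that opposes phosphofructokinase, was at 0.107 FPKM or less in all 6 libraries and was not tested. BSG, the basigin chaperone of the monocarboxylate carriers, rose 3.09-fold, and EMB, the related chaperone embigin, fell 2.68-fold. ENO3 rose from 1.15 and 1.05 FPKM to between 27.4 and 28.8 FPKM, above ENO2 in every knockout library. PFKFB2, the heart-type PFKFB, rose 3.07-fold, and BPGM, which makes 2,3-bisphosphoglycerate, rose 3.38-fold. At glucose entry, SLC2A12, the transporter GLUT12, went down from 9.20 and 9.48 FPKM in WT to between 0.00959 and 0.0121 FPKM, while HKDC1, a further hexokinase, rose 2.97-fold. SLC2A6, the transporter GLUT6, differed between the knockout groups, at 12.2 and 13.8 FPKM in WT, 15.1 and 16.4 in KO1, and 4.58 in both KO2 libraries. TXNIP, which restrains glucose uptake, rose 3.25-fold, and its paralog ARRDC4 fell (-0.42 ± 0.06, adjusted p = 0.00127).

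**Figure D5:**
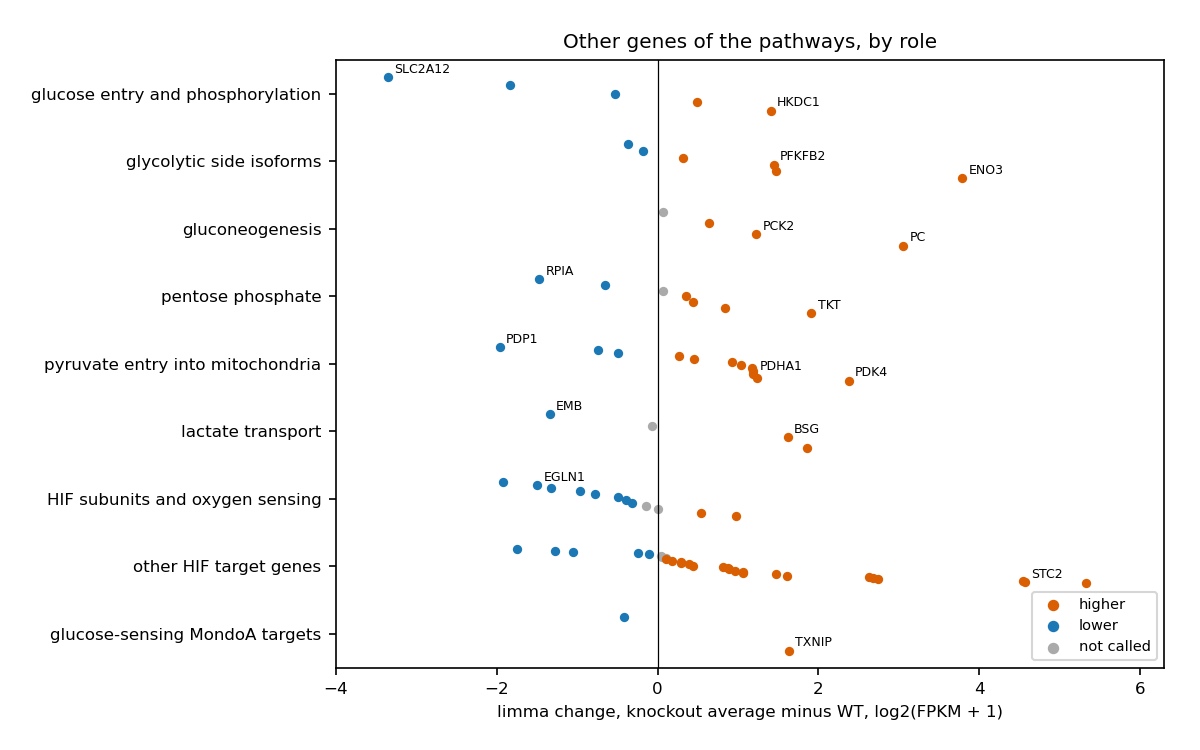
Change of the 80 tested genes of adjoining pathways, knockout average minus WT in log2(FPKM + 1), by role; each point is 1 gene, orange if called higher, blue if called lower and grey if not called. Pyruvate entry into mitochondria has 9 of 12 genes higher, and HIF subunits and oxygen sensing have 8 of 12 lower. Over all tested genes, 40.5% were called higher and 40.1% lower. The first of these roles holds 1 gene that entered through knockout libraries only, and the second 1 through WT libraries only.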

How the data were processed

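RNA of 6 libraries (WT, KO1 and KO2, 2 each) was analysed from FPKM values per Ensembl gene, as deposited by the authors. The submitters' processing notes list HISAT2 2.0.5, featureCounts 1.5.0-p3 and hg38, with no roles; for the annotation, strand setting and treatment of multi-mapped reads, none is given in the sources used here. Gene names, exon lengths and overlaps came from GENCODE 29. All FPKM values came out as whole reads within 0.1 of a step, which gave the depth (1 read in 1 kb was worth 0.0429 to 0.0544 FPKM). The depth term of the deposited FPKM was not equal to the recovered reads. It was 0.945 and 0.936 times the reads in WT, 1.03 and 1.04 times in KO1, and 1.05 times in both KO2 libraries. Knockout FPKM is therefore lower against WT than with library size scaling.

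Genes at 1 FPKM or more in at least 2 libraries were fitted as log2(FPKM + 1) over all 3 groups with limma 3.58.1 (R 4.3.3, trended prior), and Benjamini-Hochberg adjusted over 16046 genes at 0.05. Adding 1 understates changes of low genes. The script was tested on simulated data with 200 changed genes. The members and lists were chosen with earlier results of these data known. All members are named. Of the other pathway genes, the rule was the 3 with the largest called change in each role and at least 5 FPKM in a group mean, plus VHL, ARNT, EGLN1, HIF1AN, BSG, PDHA1, TXNIP and FBP1; the summary of the pyruvate dehydrogenase subunits and the genes of the last section were chosen after their values were seen. Alternatives were a pseudocount of 0.1, no filter, quantile normalization, library size and median-ratio scaling, voom on recovered reads, a replicate block, and each library left out. For the change of the knockouts averaged, a further alternative fitted all knockout libraries as 1 group. Promoters came from the RefSeq table for GRCh38.p14. Some results under the naming rule are not reported here.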

Additional observations from a re-analysis of the deposited data

Results flagged for a closer look

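For 11 members the change from WT differed between the knockout groups, by the limma test of KO2 minus KO1. The differences, on the log2(FPKM + 1) scale, were 0.83 for EGLN3, 0.49 for PGK1 and 0.33 for SLC16A3, all higher in KO2. They were -0.50 for HK1, -0.39 for LDHB, -0.38 for SLC2A3, -0.32 for VEGFA, -0.27 for PFKFB4, -0.21 for ENO2, -0.17 for SLC16A1 and -0.13 for ENO1, all lower in KO2. The same contrast called 26.2% of all tested genes, and the members' share is close to that. In 10 of the 11 genes, LDHB being the exception, both groups lay on the same side of WT.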

How the results depend on the processing

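Of the members called with the knockouts averaged, 30 of 36 kept call and direction in all 14 alternatives. ALDOC, GAPDH, HK2, LDHB, SLC16A3 and TPI1 did not. SLC16A3 lost its limma call with all knockout libraries fitted as 1 group (0.30 ± 0.13, adjusted p = 0.0876). The numbers kept over 13 alternatives were 30 of 34 for KO1, 32 of 36 for KO2 and 5 of 11 for KO2 minus KO1. Library size scaling and voom moved the median of all genes from 0.02 to 0.14 and 0.17. The higher and lower calls, 25 and 11, became 28 and 6 with quantile normalization and 27 and 7 with library size scaling. The shares of all tested genes called with these settings, with voom or with the replicate block are not given here. Shifts in the member counts with them cannot therefore be read as particular to the members. Levels of CA9 and ANKRD37 in WT were limited by 9 and 54 reads. The cause of the changes below was not tested.

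For KO2 minus KO1, voom called 18 members, 9 in each direction, and leaving out 1 library gave 5 to 14 members, 1836 to 3897 of all genes (main 4203) and 24 to 37 other pathway genes. The summed enzyme ratio was 1.20 without GAPDH, 1.22 with library size scaling and 1.33 with both.

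With quantile normalization, GAPDH turned to 0.224 on average, 0.236 in KO1, 0.213 in KO2 and -0.0229 in KO2 minus KO1, GPI to 0.0941 in KO1 and PGAM1 to 0.224 in KO2. In KO2 minus KO1, PFKFB3 turned to 0.000812, LDHA to 0.00709 and ADM to 0.0269. With library size scaling, HK2 turned to 0.00695 on average and 0.0271 in KO2, GAPDH to 0.00643 and 0.0514, LDHB to 0.0217 on average, GPI to 0.124 in KO1, PGAM1 to 0.155 in KO2, and PKM and ADM to 0.00125 and 0.00952 in KO2 minus KO1. With voom these 9 were, in the same order, 0.00905, 0.0311, 0.00561, 0.0511, 0.0223, 0.126, 0.157, 0.00215 and 0.0102. Median-ratio scaling put ADM at 3.22e-05 in KO2 minus KO1.

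Leaving out 1 library turned the sign of changes near 0: GPI ranged from -0.00936 to 0.0339 on average and -0.0312 to 0.012 in KO1, and PGAM1 from -0.00708 to 0.0512 on average and -0.0369 to 0.0214 in KO2. In KO2 minus KO1 the ranges were -0.00686 to 0.0358 for HK2, -0.0252 to 0.0401 for PFKP, -0.0661 to 0.0092 for PFKFB3, -0.00815 to 0.0193 for NDRG1 and -0.0742 to 0.0414 for ADM.

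Replicate numbers are shared by the groups, but nothing in the labels ties them. Deviations of same-numbered libraries correlated at 0.0191 (WT and KO1), -0.00406 (WT and KO2) and -0.0383 (KO1 and KO2). With so few libraries a group, these values cannot tell whether same-numbered libraries were handled together. With the replicate number as a block, 35 members were called on average, 34 in KO1, 35 in KO2 and 10 in KO2 minus KO1.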

Other observations

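Collagen-modifying enzymes on the list of HIF targets included 4 that were called higher and are named here after their values were seen. PLOD1, a lysyl hydroxylase, was at 14.2 and 15.4 FPKM in WT, 45.1 and 43.5 in KO1, and 51.1 and 50.2 in KO2 (limma log2 change 1.61 ± 0.04, adjusted p = 1.81e-06). PLOD2, its paralog, was at 5.76 and 5.31 FPKM in WT and between 12.4 and 13.1 FPKM in the knockouts. P4HA2, the paralog of P4HA1, was at 5.98 and 6.10 FPKM in WT, 10.5 and 9.95 in KO1, and 16.0 and 15.6 in KO2. LOX, a collagen cross-linking oxidase, was at 0.367 and 0.226 FPKM in WT and between 2.02 and 3.27 FPKM in the knockouts, and entered the test through knockout libraries only. All knockout libraries lay above both WT libraries for each of these genes, as they did for 39.9% of all tested genes. In either direction the share of all tested genes was 79.9%, and 40.5% were called higher.

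Glycogen genes on the same list, also chosen after their values were seen, included GBE1, the branching enzyme, at 3.24 and 3.19 FPKM in WT, 24.6 and 24.2 in KO1, and 25.7 and 26.2 in KO2 (2.63 ± 0.03, adjusted p = 1.86e-07). PPP1R3C, a glycogen-targeting phosphatase subunit, had 5 reads over both WT libraries and was between 5.11 and 6.20 FPKM in the knockouts, through which alone it entered the test. GYS1, the muscle glycogen synthase, was at 18.4 and 19.4 FPKM in WT, 19.6 and 19.7 in KO1, and 23.5 and 23.6 in KO2, and was called higher in KO2 (0.30, adjusted p = 0.000556) but did not pass in KO1 (0.05, adjusted p = 0.193). MPC2, a subunit of the mitochondrial pyruvate carrier, was at 12.2 and 12.4 FPKM in WT, 11.0 in both KO1 libraries, and 28.2 and 25.5 in KO2. The chromosomal neighbours of MPC2, which is not a member, were not examined, and the part of regional change in its KO2 level was not tested.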
